A study of Homo sapiens with 12 samples.

Results

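The 10 genes described here, ACTB, ACTG1, TAGLN, MYL9, TPM1, CNN2, CNN3, VCL, FLNA and FHL2, encode the cytoplasmic actins, proteins that bind, contract or anchor actin filaments, and a cofactor that moves between adhesions and the nucleus. They were taken by gene symbol from the 58051 genes of the count table as known targets of the transcription factor SRF and its MRTF cofactors that respond, together with YAP, to mechanical tension. All 10 passed the filter on low counts in every comparison.

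The libraries came from MDA-MB-231, a triple-negative breast cancer cell line with mesenchymal features, grown in serum and transfected with siRNA pools at 50 to 100 nM. Each of the 4 groups had 3 libraries: siControl received a non-targeting pool, siNELFA a pool against NELFA, siYAP a pool against YAP1, and siNELFA+siYAP both pools. NELFA encodes a subunit of the negative elongation factor, which holds RNA polymerase II shortly after the start of a gene, and YAP1 encodes YAP, the transcriptional coactivator that the Hippo pathway restrains. The methods place RNA extraction at 72 h after transfection, whereas the sample protocol lists 48 h and 72 h and does not give the time of each library. The methods describe independent biological replicates, but the library names give the siNELFA+siYAP libraries a shared repeat number with a running suffix. That number is the one the replicate 1 libraries of the other groups carry. The siNELFA+siYAP libraries may therefore be technical repeats. In comparisons with that group, p-values may then rest partly on technical spread, beside the spread of the other group.

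Actin genes are a classical example of feedback in transcription. Monomeric actin binds the MRTF cofactors (genes MKL1 and MKL2) and keeps them away from SRF, and when monomers are used up by filament assembly, MRTF enters the nucleus and SRF switches on genes for actin and its partners through a DNA element called the CArG box. YAP acts with TEAD factors, and the SRF and YAP programmes share many cytoskeletal genes.

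The CArG box is shown first because SRF acts through it. RefSeq promoter windows (GRCh38.p14), from 250 bases before to 50 bases after each annotated start, were matched for 7 of the 10 genes. ACTB, TAGLN and MYL9 had no entry. The box (CC, 6 bases of A or T, GG) was found in 4 of the 7 genes, ACTG1, CNN2, FLNA and FHL2, and in 1.6% of all 27305 genes with a window (1.29% of 35116 windows). Boxes outside these windows or of another form were not sought, so a gene without a match may still be an SRF target. In the lines below it stands in capitals within 25 bases on each side, read on the strand of the gene. The ACTG1 box began 94 bases before the annotated start (chr17:81512859-81512918, minus strand), the CNN2 box 89 bases (chr19:1026494-1026553, plus strand) and the FLNA box 94 bases (chrX:154374694-154374753, minus strand). FHL2 had 4 windows, the most of the 7 genes, and 2 distinct boxes. The upstream box lay 101 and 85 bases before 2 annotated starts (chr2:105438580-105438639, minus strand). The downstream box lay 59 bases before another start (chr2:105399076-105399135, minus strand).
ACTG1: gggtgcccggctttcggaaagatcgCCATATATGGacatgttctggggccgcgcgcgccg
CNN2: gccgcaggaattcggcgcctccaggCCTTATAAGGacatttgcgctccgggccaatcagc
FLNA: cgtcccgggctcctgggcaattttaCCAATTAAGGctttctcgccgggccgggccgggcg
FHL2, upstream start: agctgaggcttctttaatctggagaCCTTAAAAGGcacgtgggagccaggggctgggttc
FHL2, downstream start: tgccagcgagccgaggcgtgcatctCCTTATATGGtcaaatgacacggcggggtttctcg

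The hexamer GGAATG, the core letters that TEAD factors recognize, was searched on both strands of the same windows because TEAD is the DNA-binding partner of YAP. It was found for CNN3, FHL2 and VCL, and in 16.7% of all genes (14% of windows). The match in VCL lay 171 bases before the start (chr10:73997920-73997975, plus strand) and that in CNN3, on the opposite strand, 142 bases before the start (chr1:94925881-94925936, minus strand). The FHL2 match, not printed below, lay 27 bases before a further start of that gene (chr2:105399668-105399719, minus strand). A match is a description of letters and was not tested for binding.
VCL: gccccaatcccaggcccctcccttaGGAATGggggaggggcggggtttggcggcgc
CNN3: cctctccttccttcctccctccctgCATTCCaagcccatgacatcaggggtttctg

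Each library held between 9608145 and 18803104 counts assigned to genes, and of all gene counts between 1 and 50, 75.4% to 79.2% per library were even numbers. The counting options are not given in the sources used here, so whether a count stands for a read or for a pair of reads is not known, and totals and low counts may overstate the number of fragments. The siRNA targets followed the labels in CPM (counts scaled to library size, with TMM factors over the 12 libraries). NELFA was at 26.9 ± 1.37 CPM (SD, n = 3) in siControl and 27.1 ± 5.99 in siYAP, against 8.71 ± 1.46 in siNELFA and 7.09 ± 0.977 in siNELFA+siYAP. YAP1 was at 273 ± 27.9 and 264 ± 24.1 CPM in siControl and siNELFA, against 43.1 ± 4.73 and 41.7 ± 2.16 in siYAP and siNELFA+siYAP. The replicate 1 libraries of siControl, siNELFA and siYAP stood apart: the biological coefficient of variation was 0.351 to 0.365 over the 3 libraries of each of these groups and 0.125 to 0.155 without replicate 1, against 0.0615 in siNELFA+siYAP. The epithelial gene CDH1 moved with them, at 16.3 to 47.0 CPM in those 3 libraries and at most 0.936 CPM in the other 9, as did ERBB3 (13.7 to 21.6 against at most 6.13 CPM) and EPCAM (15.4 to 18.3 against at most 9.56 CPM). Of 5 markers of the line, VIM, CD44, AXL, CAV1 and KRT18, all were counted in every library, and ESR1 and PGR had at most 6 and 4 counts. Of 10 markers of other cell types, 8 had at most 23 counts in any library and CD3E had 0. The others were PECAM1, at 30 to 85 counts, and CD68, at 89.0 to 104 CPM in siControl and 183 to 195 CPM in siNELFA+siYAP. The summed level of the 10 markers was 77.3 to 82.9 TPM (transcript level scaled to length and library) in siControl, 92.8 to 120 in siNELFA, 93.1 to 118 in siYAP and 129 to 157 in siNELFA+siYAP. CD68 made up nearly all of this sum, at 74.9 to 155 TPM over the libraries, and each other marker had at most 2.37 TPM. The part of these differences in the results below was not tested, except that results are given without the replicate 1 libraries.

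The 10 genes together took 0.708% to 1.14% of all counts. Levels between genes are compared in TPM in siControl (mean ± SD, n = 3). ACTB, the beta actin gene (chr7:5526409-5563902), was at 3096 ± 479 TPM and ACTG1, the gamma actin gene (chr17:81509413-81523847), at 1581 ± 207 TPM, ranks 16 and 32 among all genes. FLNA (chrX:154348524-154374634), whose product crosslinks actin filaments, was at 367 ± 25.6 TPM, and CNN3 (chr1:94896949-94927223), an actin-binding calponin, at 268 ± 47.5 TPM. Neither overlapped its neighbours in the order. VCL (chr10:73995193-74121363), which links actin to adhesions, and CNN2 (chr19:1026586-1039068), another calponin, followed at 121 ± 16.2 and 112 ± 8.57 TPM, and their libraries overlapped. MYL9 (chr20:36541497-36551447), a regulatory light chain of non-muscle and smooth muscle myosin, was at 82.6 ± 9.77 TPM and TPM1 (chr15:63042620-63071915), a tropomyosin that lies along the filament, at 76.6 ± 19.3 TPM, again with overlap. FHL2 (chr2:105357712-105438513), a LIM-domain cofactor, was at 17.3 ± 1.36 TPM and TAGLN (chr11:117199370-117207464), the smooth muscle protein transgelin, at 8.50 ± 4.70 TPM. TAGLN was the least counted of the 10, with 30 to 243 counts per library.

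Of the muscle actins, ACTA2 was low and the others were near the floor. ACTA2 was at 5.43 ± 3.61 CPM in siControl and 5.74 ± 2.78 in siNELFA (SD, n = 3). It was at 6.55 ± 4.12 CPM in siYAP and 2.85 ± 0.337 in siNELFA+siYAP. No comparison below, with or without a block, called it in edgeR. ACTA2 had 30 to 116 counts per library, ACTA1 at most 23, ACTC1 at most 6 and ACTG2 at most 1. Counts of processed copies were small beside those of their parents, at most 0.141% of ACTB, 0.408% of ACTG1 and 0.327% of CNN2. In the GENCODE release 44 transcripts, no stretch of 150 bases in the MANE Select transcripts of 9 of the genes occurred in another gene. The exception was TAGLN, which shared 64.6% of such stretches with an overlapping gene on the same strand (ENSG00000280143) that itself had 0 to 14 counts, so reads of the shared part cannot be assigned with certainty.

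**Figure D1:**
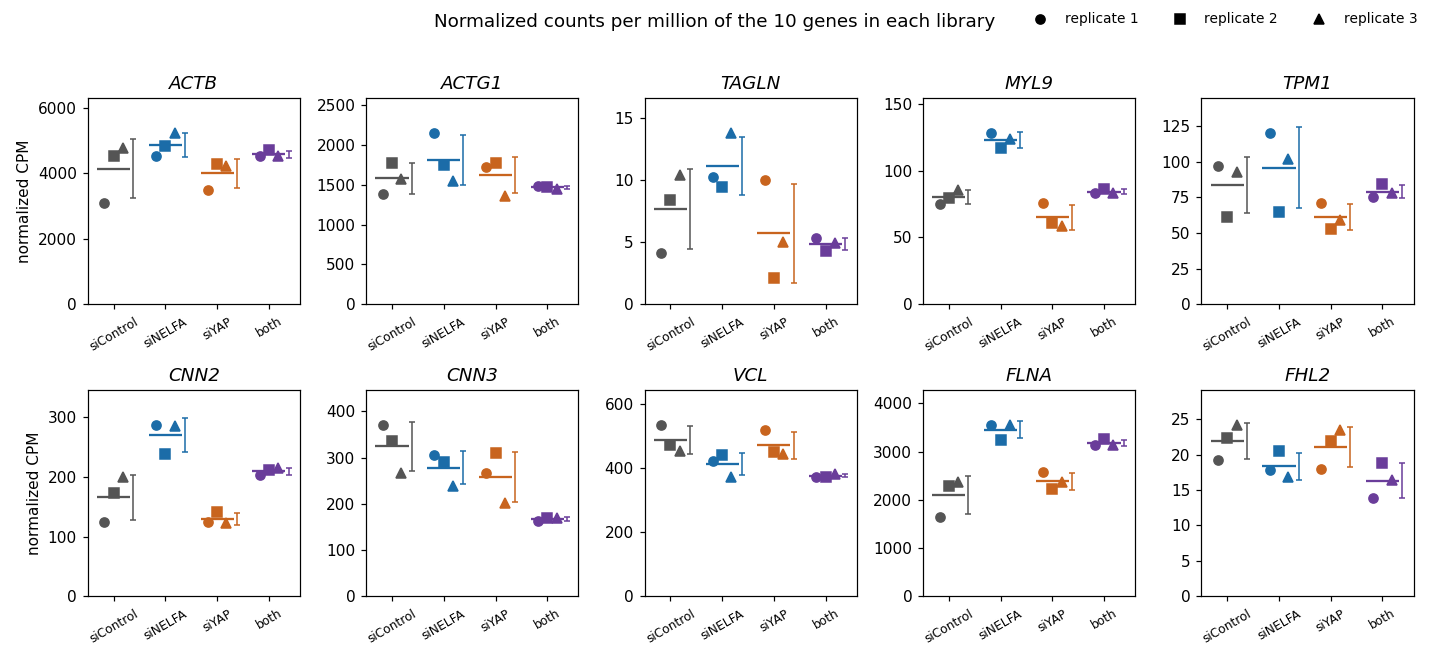
Normalized CPM (y axis, linear, from 0) of each gene in the 12 libraries, by siRNA group (x axis; "both" is siNELFA+siYAP); points are libraries with the symbol giving the replicate number, horizontal lines are group means and bars beside them are 1 SD (n = 3). FLNA, CNN2 and MYL9 lie higher in siNELFA than in siControl without overlap, CNN3 lies lowest in siNELFA+siYAP, and the siNELFA+siYAP points lie close together.

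The first comparison asked how the 10 genes differed after NELFA knockdown. FLNA, CNN2 and MYL9 were higher in all 3 siNELFA libraries than in any siControl library, at 164%, 164% and 154% of siControl in the fit, and VCL was lower without overlap. The edgeR quasi-likelihood test without a block passed 0 of the 10 genes at a Benjamini-Hochberg adjusted p under 0.05, where it called 0.00564% of all 17727 genes tested. DESeq2 also called 0 of the 10, against 0.152% of all genes, and limma on TPM 0. At an unadjusted p under 0.05 edgeR gave 3 of the 10 genes, against 4.46% of all genes. Groups that did not overlap were found for 4 of the 10 genes and for 12.2% of all genes.

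Libraries with the same replicate number in siControl, siNELFA and siYAP deviated together from their group means, so the number was also used as a block. Deviations within a group cancel out, so the shared departure of replicate 1 also moves the other libraries together. Whether those other libraries pair by number was not tested apart from replicate 1, and the blocked calls rest on that pairing. With the block edgeR called FLNA, CNN2 and MYL9, all higher, where it called 5.21% of all genes in either direction and 2.76% as higher. The remaining 7 genes did not pass.

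FLNA was at 1646, 2288 and 2376 CPM in siControl replicates 1 to 3 and at 3557, 3249 and 3543 CPM in siNELFA. The siControl replicate 1 library was the lowest. The log2 fold change without the block was 0.72 (SE 0.179, edgeR adjusted p = 1.00), and the blocked fit gave 0.73 (SE 0.109, adjusted p = 0.003). CNN2 was at 125, 173 and 199 CPM in siControl and at 288, 238 and 286 CPM in siNELFA. All siNELFA libraries lay above the highest siControl library. The log2 fold change of CNN2 was 0.71 (SE 0.208) without the block and 0.72 (SE 0.129, edgeR adjusted p = 0.00826) with it. MYL9 was at 75.1, 79.8 and 85.8 CPM in siControl and at 129, 117 and 124 CPM in siNELFA, a gap wider than the range of either group. Its log2 fold change was 0.62 (SE 0.147) without the block and 0.62 (SE 0.105, edgeR adjusted p = 0.00621) with it.

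The ratio of siNELFA to siControl was above 1 in 3 of 3 same-numbered pairs for these genes and was highest in the replicate 1 pair. For FLNA the ratios were 2.16, 1.42 and 1.49, for CNN2 2.30, 1.38 and 1.43, and for MYL9 1.71, 1.47 and 1.45. Without the replicate 1 libraries, a blocked fit on the 4 remaining libraries, chosen after the data had been seen and with few degrees of freedom, still called FLNA, CNN2 and MYL9, with log2 fold changes of 0.55, 0.50 and 0.55, while it called 15.7% of all genes.

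The actins themselves differed less. ACTB had a log2 fold change of 0.24 (95% interval -0.22 to 0.69) and ACTG1 of 0.20 (-0.23 to 0.63) without the block. Neither passed with the block, at edgeR adjusted p = 0.146 for ACTB and 0.402 for ACTG1. On the TPM scale, where the median of all genes lay at -0.17, both lay just below 0, at -0.013 and -0.028. TAGLN (0.54), TPM1 (0.20), CNN3 (-0.22), VCL (-0.24) and FHL2 (-0.25) did not pass either fit, and TPM1 also changed sign on the TPM scale, to -0.093.

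**Figure D2:**
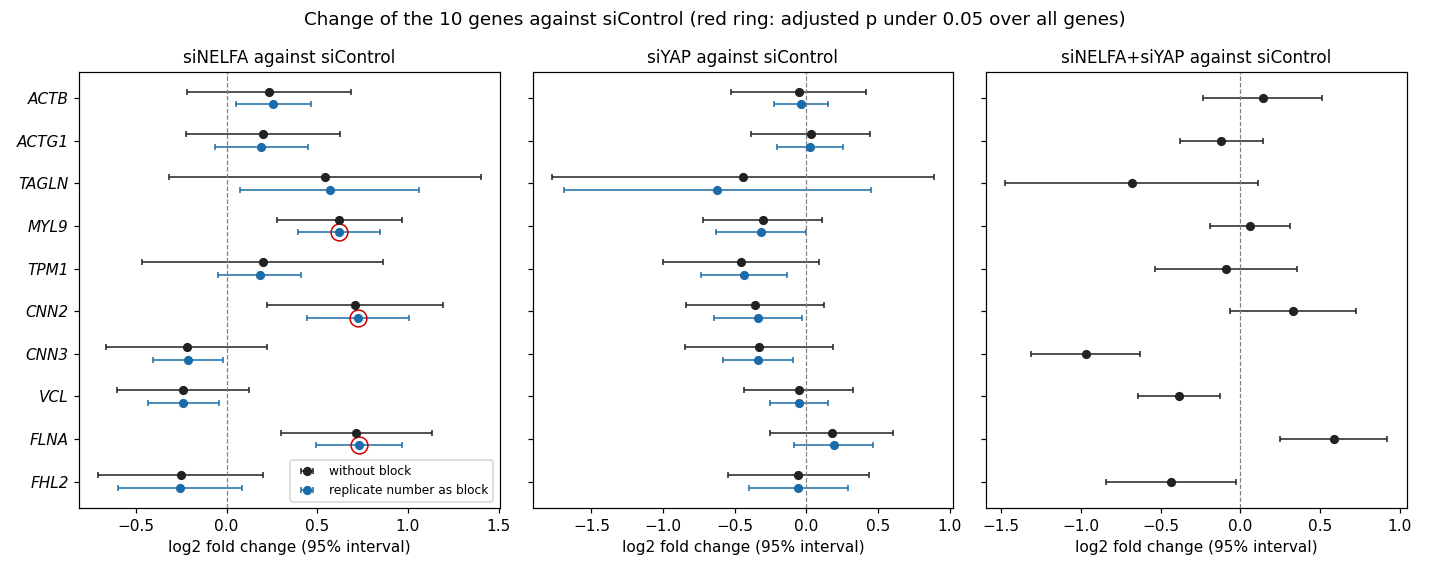
Log2 fold changes of the 10 genes against siControl (x axis, linear) with 95% intervals, from edgeR unblocked (black) and blocked on replicate number (blue). The blocked fit is shown for siNELFA and siYAP, whose numbers were taken to pair with siControl. Red rings mark an adjusted p under 0.05 over all genes. Rings stand at FLNA, CNN2 and MYL9 in siNELFA with the block and nowhere else, and CNN3 in siNELFA+siYAP lies farthest to the left in its panel at -0.97.

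The comparison of siYAP with siControl asked whether the loss of YAP1 RNA moved the same genes. No gene stood apart: 0 of 10 had groups that did not overlap, against 7.75% of all genes, and 0 of 10 passed edgeR's adjusted test, against 0.00578% of the 17296 genes tested. At an unadjusted p under 0.05 edgeR gave 0 of the 10, against 1.3% of all genes. DESeq2 called 0, against 0.0116%, and limma on TPM 0. With the block edgeR also called 0 of 10, against 0.0173% of all genes, and gave 4 at an unadjusted p under 0.05, against 9.11%, TPM1 (-0.44), CNN3 (-0.34), CNN2 (-0.34) and MYL9 (-0.32). The largest differences without the block were those of TPM1 (-0.45, 95% interval -1.0 to 0.09), TAGLN (-0.44, -1.78 to 0.89), CNN2 (-0.36, -0.84 to 0.12), CNN3 (-0.33, -0.85 to 0.19) and MYL9 (-0.31, -0.72 to 0.11), all below 0.

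The replicate 1 pair differed from the others here too. MYL9 was at 75.9, 61.1 and 58.4 CPM in siYAP, so that its ratio to siControl was 1.01 in replicate 1, 0.766 in replicate 2 and 0.682 in replicate 3. CNN2, at 125, 141 and 123 CPM in siYAP, had ratios of 1.00, 0.814 and 0.615. TAGLN went in opposite directions, with ratios of 2.43, 0.254 and 0.480 on 30 to 104 counts in siYAP. In the blocked fit without the replicate 1 libraries, TAGLN (-1.44), CNN2 (-0.50), MYL9 (-0.47) and TPM1 (-0.43) were called lower, with edgeR adjusted p = 0.00382, 0.00186, 0.00467 and 0.0268, while 0.855% of all genes were called lower and 1.62% in either direction. Those 4 calls were absent from the fit with all 3 pairs and rest on 2 pairs chosen after the data had been seen. TPM1 had ratios of 0.736, 0.867 and 0.642, and CNN3 of 0.718, 0.919 and 0.757, below 1 in 3 of 3 pairs each.

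**Figure D3:**
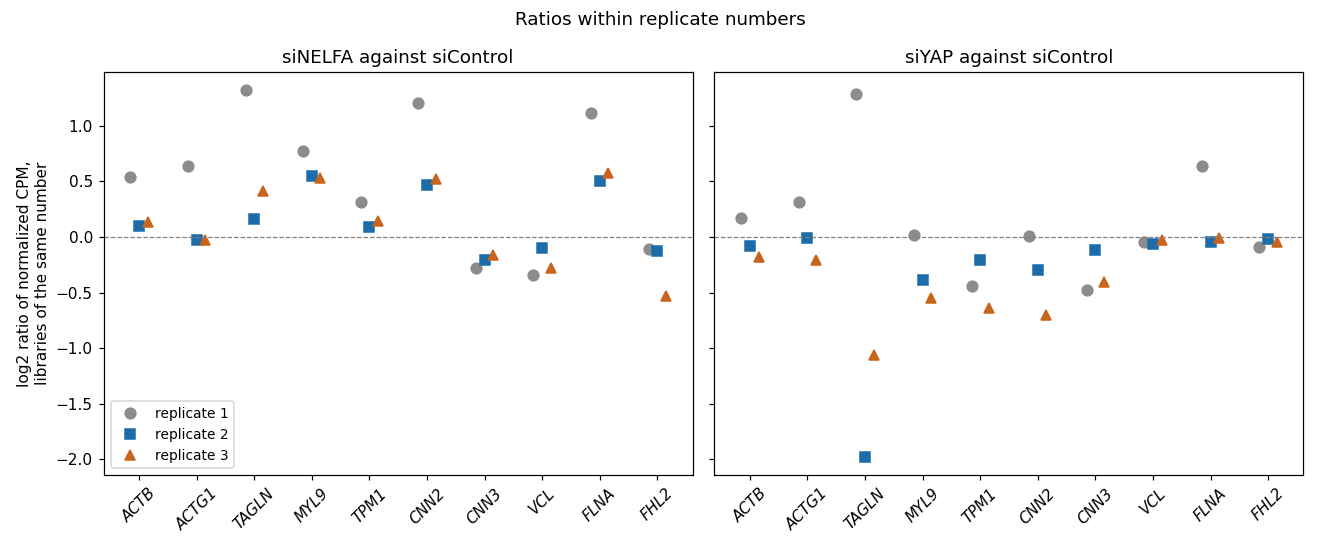
Log2 ratio of normalized CPM (y axis, linear) between libraries of the same replicate number for each gene, siNELFA to siControl on the left and siYAP to siControl on the right; symbols give the replicate number. FLNA, CNN2 and MYL9 are above 0 in all 3 pairs on the left, with replicate 1 highest, and on the right TAGLN runs from a ratio of 0.254 to 2.43.

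The cotransfected cells were compared with the same controls. Against siControl, CNN3, VCL and FHL2 were lower and CNN2 and FLNA higher without overlap, so 5 of 10 genes did not overlap, against 29.8% of all genes. The edgeR test passed 0 of 10, against 0.428% of the 17533 genes tested, and 4 of 10 had an unadjusted p under 0.05, against 18.5% of all genes. DESeq2 called CNN3 and FLNA, where it called 7.69% of all genes, and limma on TPM called 0. The siControl libraries are shared with the previous comparisons.

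CNN3 was at 371, 336 and 266 CPM in the siControl libraries and at 163, 168 and 170 CPM in the cotransfected ones. The single knockdowns were at 306, 291 and 238 CPM (siNELFA) and at 267, 309 and 201 CPM (siYAP). Every siNELFA+siYAP library lay below every library of the other groups, and the siYAP and siControl ranges overlapped. The fitted log2 fold change of -0.97 (SE 0.146), or 51.0% of the control level, was just outside edgeR's threshold at adjusted p = 0.0515 and inside that of DESeq2 at 1.56e-05. FLNA was at 3143, 3258 and 3144 CPM in siNELFA+siYAP, a log2 fold change of 0.59 (SE 0.143, edgeR adjusted p = 0.109, DESeq2 0.0152). VCL was at 536, 473 and 453 CPM in siControl and at 373, 373 and 381 CPM in siNELFA+siYAP, a log2 fold change of -0.39 (SE 0.110, edgeR adjusted p = 0.139). FHL2 went from 19.2, 22.3 and 24.2 CPM to 13.8, 18.8 and 16.3 CPM, a log2 fold change of -0.44 (SE 0.172, edgeR adjusted p = 0.245). The nearest FHL2 libraries of the compared groups, at 18.8 and 19.2 CPM, were close together.

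The number of calls depended on siControl replicate 1. Without that library edgeR called 6 of the 10 genes, where it called 24.4% of all genes, and without replicate 1 of every group it called 4, CNN3 (-0.83), TAGLN (-1.02) and VCL (-0.29) lower and FLNA (0.46) higher, while it called 17.9% of all genes. ACTB (0.14, 95% interval -0.23 to 0.51) and ACTG1 (-0.12, -0.38 to 0.14) did not pass. ACTB lay below 0 on the TPM scale, at -0.027, and without replicate 1 of every group, at -0.011. MYL9 (0.06) and TPM1 (-0.09) lay near 0, and MYL9 was at -0.073 on the TPM scale.

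The knockdowns were next compared with each other. The contrast of siNELFA with siYAP, added after the values had been seen, gave 0 of 10 genes in the unblocked edgeR test, against 0.0116% of 17257 genes, and 4 at an unadjusted p under 0.05, against 5.63%. Groups did not overlap for ACTB, MYL9, CNN2 and FLNA, higher in siNELFA, and for VCL, lower, against 12.5% of all genes. DESeq2 called 3 of 10 genes, CNN2, MYL9 and FLNA, against 0.446% of all genes, and limma on TPM 0. With the block edgeR called 6 of 10, all higher in siNELFA, while it called 8.33% of all genes as higher and 15.8% in either direction. CNN2 had a log2 difference of 1.07 (SE 0.0914, adjusted p = 1.51e-08) and MYL9 of 0.94 (SE 0.0928, 1.76e-07). TAGLN (1.15, SE 0.266), TPM1 (0.62, SE 0.103), FLNA (0.54, SE 0.0752) and ACTB (0.29, SE 0.0762) made up the rest. The same 6 genes were called by the blocked fit without replicate 1, where 14.8% of all genes were called. ACTG1 (0.17), CNN3 (0.12), VCL (-0.18) and FHL2 (-0.20) did not pass with the block.

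Adding siYAP to siNELFA went with lower values in all 10 genes in the fit, and 5 of them, ACTG1, TAGLN, MYL9, CNN2 and CNN3, were lower without overlap, against 15.1% of all genes in either direction. The edgeR test passed 0 of 10, against 0.00573% of 17463 genes, with 4 at an unadjusted p under 0.05, against 6.62%. DESeq2 called TAGLN, MYL9 and CNN3, against 0.258% of all genes, and limma on TPM called 0. Without siNELFA replicate 1 edgeR called 3 of the 10, against 1.25% of all genes. TAGLN was at 10.3, 9.40 and 13.8 CPM in siNELFA and at 5.30, 4.29 and 4.95 CPM in siNELFA+siYAP, a log2 difference of -1.21 (SE 0.229, edgeR adjusted p = 0.735, DESeq2 0.00449). The siNELFA+siYAP values of MYL9 were 83.1, 86.2 and 83.3 CPM, a log2 difference of -0.55 from siNELFA (SE 0.0998, DESeq2 adjusted p = 0.00397). CNN3 differed by -0.74 (SE 0.121, DESeq2 adjusted p = 0.00104). FLNA, in contrast, differed by -0.12 (95% interval -0.33 to 0.09).

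Adding siNELFA to siYAP went with higher values of ACTB, MYL9, TPM1, CNN2 and FLNA and lower values of CNN3 and VCL without overlap, 7 of 10 genes against 26.5% of all genes. The edgeR test passed 0 of 10, against 0.035% of 17167 genes, with 6 at an unadjusted p under 0.05, against 15.5%. DESeq2 called CNN2, FLNA and CNN3, against 4.49% of all genes, and limma on TPM called 0. CNN2 was at 203, 211 and 215 CPM in siNELFA+siYAP, a log2 difference of 0.69 (SE 0.105, edgeR adjusted p = 0.102, DESeq2 7.98e-06), and FLNA differed by 0.41 (SE 0.101, DESeq2 adjusted p = 0.0194). Without siYAP replicate 1 edgeR called 7 of the 10 genes, against 16.5% of all genes. Without replicate 1 of both groups it called CNN2, FLNA, MYL9 and TPM1, all higher, where it called 7.7% of all genes.

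**Figure D4:**
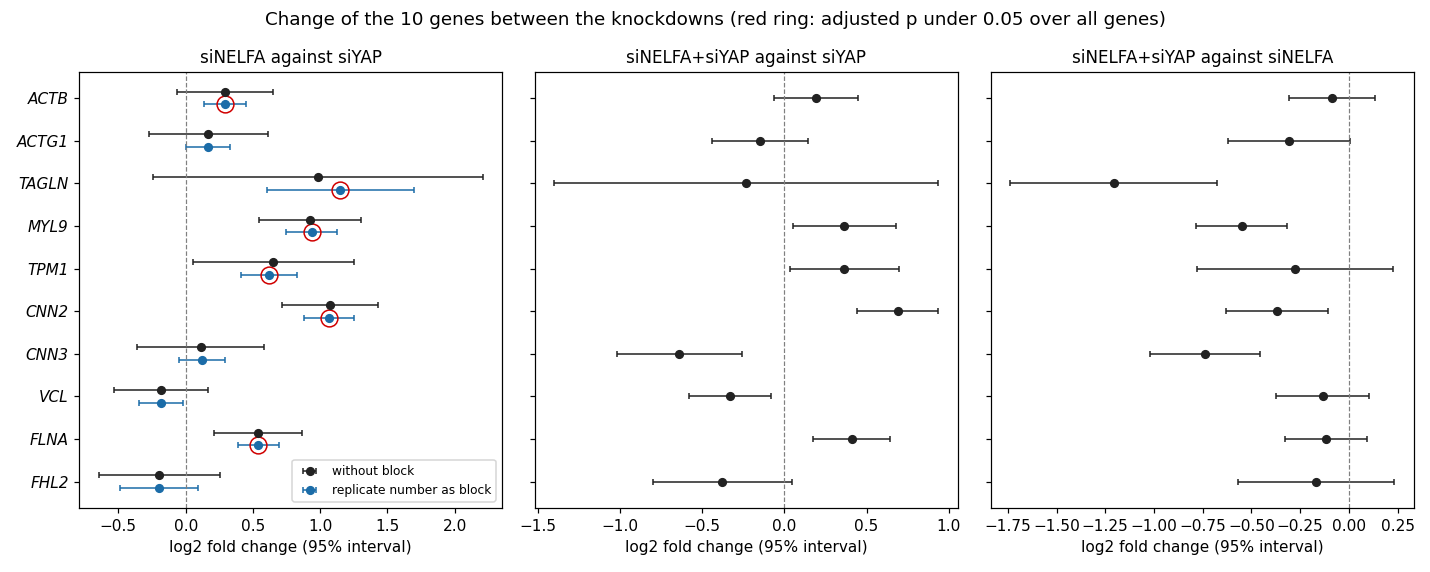
Log2 fold changes of the 10 genes between the knockdown groups (x axis, linear) with 95% intervals, from edgeR unblocked (black) and, for siNELFA against siYAP, blocked on replicate number (blue); red rings mark an adjusted p under 0.05 over all genes. The 6 ringed genes are ACTB, TAGLN, MYL9, TPM1, CNN2 and FLNA in siNELFA against siYAP with the block, and all 10 points lie below 0 in siNELFA+siYAP against siNELFA.

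The 4 groups form a factorial design, so the effect of siNELFA with siYAP present was tested against its effect alone over the 12 libraries. By edgeR's interaction test 0 of the 10 genes passed, and 0% of the 18525 genes tested did. DESeq2 and limma on TPM also called 0. At an unadjusted p under 0.05 edgeR gave 0 of the 10, against 1.76% of all genes. The estimates had wide intervals, for example -0.30 (-0.72 to 0.13) for FLNA, -0.25 (-0.64 to 0.15) for MYL9 and -0.41 (-0.96 to 0.13) for CNN3 on the log2 scale.

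The genes did not all vary together across the 12 libraries, which share replicate numbers and 1 scaling, and the correlations below are descriptions. The highest Pearson correlations of log2 CPM were MYL9 with CNN2 (r = 0.893, n = 12 libraries) and CNN2 with FLNA (0.836), and the lowest were VCL with FLNA (-0.796) and ACTB with VCL (-0.774). After the group means were removed, the correlation was 0.406 for MYL9 with CNN2, 0.807 for CNN2 with FLNA, -0.458 for VCL with FLNA and -0.852 for ACTB with VCL, so the order rests partly on differences between groups. ACTB and ACTG1 correlated at 0.175, and the ratio of their counts ran from 2.02 to 3.40. Among 12971 genes averaging at least 50 counts, the genes outside the 10 most like their mean profile, in which the more variable genes such as TAGLN weigh more, were ITPK1 (0.947), JPH2 (0.918), FADS3 (0.911), SFTA1P (0.904) and PVR (0.882).

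The factors upstream were measured next. SRF was at 85.8 ± 33.9 CPM (SD, n = 3) in the controls and 90.0 ± 2.28 CPM in the cotransfected cells. After siNELFA it was at 100.3 ± 7.41 CPM and after siYAP at 86.9 ± 12 CPM. The siControl libraries were at 46.7, 106 and 104 CPM in replicates 1 to 3. The siNELFA libraries (94.7 to 109 CPM) overlapped those of siControl and siYAP. They lay above those of siNELFA+siYAP (87.6 to 92.1 CPM), a comparison in which 15.1% of all genes did not overlap. SRF had no unadjusted p under 0.05 there by edgeR, with or without the block. MKL1 and MKL2, which encode the MRTF cofactors, passed neither edgeR fit against siControl, and MYOCD, the muscle member of the family, had 0 counts in all 12 libraries. Of 7 regulators tested, 1 passed in siNELFA against siControl, and only with the block, where 5.21% of all genes were called. It was ELK3, a ternary complex factor that binds SRF, at -0.88 (SE 0.159, edgeR adjusted p = 0.00884). ELK3 was at 147, 196 and 227 CPM in siControl replicates 1 to 3 and at 53.5, 150 and 128 CPM in siNELFA, so the groups overlapped. ELK3 did not pass against siControl in siYAP or siNELFA+siYAP. It was also lower in siNELFA than in siYAP with the block (-0.66, SE 0.0990), where 15.8% of all genes were called.

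Other genes of the pathway were taken from lists drawn up with earlier results of these data known. Of 35 tested SRF and MRTF targets outside the 10, 0 passed in siNELFA against siControl without the block, where 3 had an unadjusted p under 0.05, against 4.46% of all genes, and 8 passed with it, against 5.21%. Of these, 5 were higher, among them TUFT1 (0.87), the glucose transporter SLC2A3 (0.84) and the integrin subunit ITGA5 (0.56), and 3 were lower, the non-muscle myosin heavy chain MYH10 (-0.59), the actin-bundling LIMA1 (-0.47) and the adhesion adaptor PXN (-0.43). The median of the 35 was 0.17 with the block, against 0.0063 over all genes. In siNELFA+siYAP against siControl, MYH10 (-1.0, SE 0.115, edgeR adjusted p = 0.0317) and LIMA1 (-1.0, SE 0.135, 0.0423) fell without the block, 2 of 35 genes against 0.428% of all genes. Between siNELFA and siYAP with the block, 11 of the 35 were higher in siNELFA and 2 lower, where 8.33% of all genes were higher and 15.8% were called in either direction. The higher ones included TUFT1 (0.80), the actin crosslinker ACTN1 (0.55) and the myosin light chain MYL12A (0.43), and the lower ones were PXN (-0.72) and MYH10 (-0.42).

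Of 27 genes of actin filament turnover, 6 were higher and 1 lower in siNELFA against siControl with the block, against 5.21% of all genes called and 2.76% called higher. Without it 0 passed, and 3 had an unadjusted p under 0.05, against 4.46% of all genes. The higher ones included the ARP2/3 subunit ARPC1B (0.73, SE 0.156), the coactosin COTL1 (0.62, SE 0.0900) and the filament-elongation factor VASP (0.52, SE 0.101), and the lower one was the capping protein subunit CAPZA2 (-0.77, SE 0.122). Their median was 0.23, against 0.0063 over all genes. In siNELFA+siYAP against siControl without the block, 0 of the 27 passed. At an unadjusted p under 0.05, 12 were higher and 4 lower, against 18.5% of all genes. Against siYAP, siNELFA+siYAP likewise gave 0 passing, with 12 higher and 3 lower at that threshold, against 15.5% of all genes. Between siNELFA and siYAP with the block, 17 of the 27 were higher in siNELFA, against 8.33% of all genes, among them COTL1 (0.65), ARPC5 (0.52) and ARPC1B (0.45), and 3 were lower, CAPZA2 (-0.50), GSN (-0.40) and RDX (-0.30). Of 7 tested early serum-response genes, JUNB passed in siNELFA against siControl with the block (0.87, SE 0.145, edgeR adjusted p = 0.00541). There 5.21% of all genes were called. DUSP1 (0.46, SE 0.119) and MCL1 (0.24, SE 0.0798) were called higher in siNELFA than in siYAP with the block, against 8.33% of all genes. In siNELFA+siYAP against siControl without the block, 0 of the 7 passed. Of these, 4 were higher and 0 lower at an unadjusted p under 0.05, against 18.5% of all genes in either direction. In siYAP against siControl 0 genes of these 3 lists passed either edgeR fit. Without the block 0 genes of the 3 lists had an unadjusted p under 0.05. With it, 3 of the 35 other SRF and MRTF targets were higher and 8 lower at that threshold, as were 1 higher and 1 lower of the 27 turnover genes and 1 higher and 0 lower of the 6 early serum-response genes tested, against 9.11% of all genes. In RNA of a whole culture, fewer cells with a transcript and less of it per cell cannot be told apart.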

How the data were processed

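Stranded, rRNA-depleted total RNA libraries were sequenced as paired reads of 150 bases. The authors aligned trimmed reads to GRCh38 (Ensembl release 87) with STAR in 2 passes, and the deposited counts are raw counts per gene from featureCounts. Counting options and versions are not given in the sources used here. Deposited TPM values, computed by the authors for each library, served for levels between genes and as an alternative. The FPKM table was not used.

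Counts were tested with edgeR 4.0.16 (quasi-likelihood, TMM factors; R 4.3.3) on the 6 libraries of each comparison, and on 12 for the interaction. Genes were kept by filterByExpr (minimum count 10, total 15, proportion 70%), and p-values were adjusted by Benjamini-Hochberg over all genes, with a threshold of 0.05. The standard error is the log2 fold change divided by the square root of F. Alternatives were DESeq2 1.42.0, limma 3.58.1 on log2(TPM + 1) and log2(TPM + 0.1), RLE factors, no filter, all 12 libraries, the replicate number as a block, and libraries left out. Scripts were tested on simulated data. The total per library (9608145 to 18803104 counts) limits precision for genes with low counts.

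Deviations of same-numbered libraries from their group means, over 12971 genes averaging at least 50 counts, correlated at r = 0.650 to 0.889 between siControl, siNELFA and siYAP, and at -0.051 to 0.028 with siNELFA+siYAP. The numbers, from the sample titles, were therefore taken to pair the first 3 groups only. Deviations within a group cancel out, so the departure of replicate 1 alone can raise these correlations for replicates 2 and 3. Centring on group means would also hide a repeat number shared by all siNELFA+siYAP libraries. Likeness between genes used log2(CPM + 0.5).

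The members and gene lists were chosen with earlier results of these data known. The contrast of siNELFA with siYAP and the blocked fit without replicate 1 were added after values had been seen. A further gene list is not reported here. Named were all 10 genes, the siRNA targets, the muscle actins and the regulators SRF, MKL1, MKL2, MYOCD and ELK3. The other regulators on the list, ELK1, ELK4 and SCAI, passed neither edgeR fit in any comparison. From each other reported list, up to 3 genes in each direction with the largest change among those passing either edgeR fit were named. Promoter sequences are from RefSeq (GRCh38.p14) and gene positions from GENCODE release 44 (GRCh38), read as annotation of the same build.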

Additional observations from a re-analysis of the deposited data

How the results depend on the processing

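Of 1060 log2 fold changes of the 10 genes recomputed under the alternatives, 940 kept their direction and their side of the threshold, 66 kept their direction and passed it, and 54 changed sign, none of these beyond a size of 0.43. The number of the 10 genes called was 0 in each comparison of the unblocked edgeR fit. For siNELFA against siControl it was 3 with the replicate block and 3 with the block and replicate 1 left out. For siYAP against siControl it was 0 with the block and 4 with the block and replicate 1 left out. For siNELFA+siYAP against siControl it was 2 with DESeq2, 1 with no filter, 1 with all 12 libraries in a fit and 4 without replicate 1 of every group, and 0 to 6 with single libraries left out (6 without siControl replicate 1, 1 without siControl replicate 3). For siNELFA+siYAP against siNELFA it was 3 with DESeq2, 1 with no filter, and 0 to 3 with single libraries left out (3 without siNELFA replicate 1). For siNELFA+siYAP against siYAP it was 3 with DESeq2, 1 with no filter, 4 without replicate 1 of every group, and 0 to 7 with single libraries left out (7 without siYAP replicate 1). For siNELFA against siYAP it was 3 with DESeq2, 6 with the block, 6 with the block and replicate 1 left out, 2 with all 12 libraries and 2 without replicate 1. In comparisons with siNELFA+siYAP, whose numbers were not taken to pair, the block gave 0 calls among the 10 genes. The cause of these differences was not tested. A fit that leaves a group with 2 libraries or fewer residual degrees of freedom rests on the spread pooled over genes.

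Most values that changed sign lay near 0. The largest, 0.427, was that of TAGLN in siNELFA+siYAP against siYAP without siYAP replicate 1. TPM shifted the median of all genes by over 0.1 in 4 comparisons (-0.168, -0.107 and -0.115 for siNELFA and siNELFA+siYAP against siControl and siNELFA against siYAP, 0.109 for the interaction, with + 1). With limma on log2(TPM + 1) and log2(TPM + 0.1), in that order where they differ, siNELFA against siControl gave -0.0135 for ACTB, -0.0285 for ACTG1, and -0.0925 and -0.0937 for TPM1. siNELFA+siYAP against siControl gave -0.0265 for ACTB and -0.0728 and -0.0736 for MYL9. siNELFA against siYAP gave -0.0816 for ACTG1, and -0.0344 and -0.0345 for CNN3. The interaction gave 0.131 for ACTB, 0.126 and 0.129 for CNN2, and 0.174 and 0.175 for VCL. Without replicate 1 of every group, ACTG1 was at -0.0213 in siNELFA and -0.0966 in siYAP against siControl, FLNA at -0.0223 in siYAP, ACTB at -0.0115 and TPM1 at 0.0747 in siNELFA+siYAP, TAGLN at 0.364 in siNELFA+siYAP against siYAP, and in the interaction TAGLN was at 0.0452 and CNN2 at 0.187. With the block as well, ACTG1 was at -0.0209 in siNELFA and -0.106 in siYAP, and FLNA at -0.0228 in siYAP. With single libraries left out, siYAP against siControl ranged from -0.217 to 0.0593 for ACTB, -0.0485 to 0.134 for ACTG1, -0.126 to 0.0280 for VCL and -0.143 to 0.0489 for FHL2. siNELFA+siYAP against siControl ranged from -0.0246 to 0.260 for ACTB and -0.270 to 0.0378 for TPM1. TAGLN in siNELFA+siYAP against siYAP ranged from -0.623 to 0.427, and CNN3 in siNELFA against siYAP from -0.0395 to 0.260. The interaction ranged from -0.154 to 0.136 for ACTB, -0.0457 to 0.375 for TPM1 and -0.170 to 0.155 for CNN2.

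Over all genes, calls in siNELFA against siControl went from 1 to 27 with DESeq2 and 924 with the block, in siNELFA+siYAP against siControl from 75 to 1348 with DESeq2, 2 with the block and 4531 without siControl replicate 1, in siNELFA+siYAP against siYAP from 6 to 770 with DESeq2 and 2937 without siYAP replicate 1, and in siNELFA against siYAP from 2 to 77 with DESeq2 and 2721 with the block. In siYAP against siControl they went from 1 to 3 with the block and 290 with the block and replicate 1 left out. In siNELFA+siYAP against siNELFA they went from 1 to 45 with DESeq2 and 228 without siNELFA replicate 1.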
